A study of Drosophila melanogaster with 16 samples.

Results

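Transcripts of 9 genes of insulin signalling were followed in whole *Drosophila melanogaster* flies that lack part of the noncoding RNA gene *Uhg4* and in their wild-type control. The genes were taken by symbol, and each of *Ilp2*, *Ilp3*, *Ilp5*, *Ilp6*, *ImpL2*, *InR*, *chico*, *foxo* and *Thor* matched 1 FlyBase identifier among the 17490 genes of the count table. All 9 had a median of at least 2 reads per library and were among the 16212 genes tested. The control was DGRP_208, an inbred wild-type line free of *Wolbachia*, and the 3 deletion lines *208-ΔA*, *208-ΔF* and *208-ΔG* were made in it by CRISPR-*Cas9* and each lack the start of *Uhg4*, its promoter and its first exon. Homozygous deletion flies are sterile and the stocks are kept over a *CyO* balancer. The labels of the sampled flies name the deletion and no balancer. Every library was made from total RNA of 30 pooled whole flies of 1 line and 1 sex, aged 3 to 5 days, and depleted of ribosomal RNA. Each of the 8 groups of line and sex had 2 libraries, 16 in all. The study's methods call the 2 libraries of a group biological replicates, without giving how their cultures were separated, and each line stands for 1 deletion in 1 genetic background.

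In the fly, insulin-like peptides are secreted hormones that bind the receptor InR and tie growth, metabolism, reproduction and lifespan to feeding. *Ilp2*, *Ilp3* and *Ilp5* are expressed mainly by a small group of neurosecretory cells in the brain, *Ilp6* is expressed mainly in the fat body, the fly's counterpart of liver and adipose tissue, and the secreted protein ImpL2 binds the peptides and restrains their action. Within the responding cell, Chico, the insulin receptor substrate, passes the signal on to PI3-kinase and Akt, Akt keeps the transcription factor Foxo out of the nucleus, and at low insulin signalling Foxo raises its targets, among them *InR* and *Thor*, which encodes the translational repressor 4E-BP.

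The counts of a library summed to 13902521 to 51954693. Levels are given as CPM, the reads of a gene relative to the library's total after TMM scaling, which sets the totals so that the bulk of the genes keeps 1 level. *Uhg4* stood at 0.195 to 1.02 CPM in the deletion libraries and at 0.974 to 6.67 CPM in those of DGRP_208 (log2 fold change -2.63, edgeR adjusted p = 0.00385), and the 2 ranges touched only through the males. Libraries also differed in the level of 186 chemoreceptor genes, which most fly cells do not express. The median of these genes, in RPKM (reads per kilobase of gene relative to the library's total, here without TMM scaling), was 0.350 to 0.930 in *208-ΔA*, 0.724 to 2.27 in *208-ΔF*, 2.86 to 5.81 in *208-ΔG* and 0.601 to 3.37 in DGRP_208. In DGRP_208 this chemoreceptor level was 1.96 and 0.613 RPKM in the females and 0.601 and 3.37 RPKM in the males. It is given beside the results below because it moved with the level of several of the 9 genes.

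The genes lie on 4 chromosome arms of the dm6 assembly. *Ilp2* (FBgn0036046, 3L, 9799698 to 9800440, plus strand) and *Ilp3* (FBgn0044050, 3L, 9801298 to 9802120, minus strand) are neighbours within an intron of *CG32052*, and *Ilp5* (FBgn0044048, 3L, 9823349 to 9823897, minus strand) lies within an intron of *CG43897*. *Ilp6* (FBgn0044047, X, 2331493 to 2334658, minus strand) has 4 annotated transcripts and lies within an intron of *Raf*, on the opposite strand. *ImpL2* (FBgn0001257, 3L, 4224006 to 4236147, minus strand) shares exon sequence with *CG46460*, and *chico* (FBgn0024248, 2L, 10242512 to 10247078, minus strand) shares exon sequence with the antisense RNA *asRNA:CR44995*. *InR* (FBgn0283499, 3R, 21570248 to 21619321, minus strand), *foxo* (FBgn0038197, 3R, 14056945 to 14087978, plus strand) and *Thor* (FBgn0261560, 2L, 3478434 to 3479612, plus strand) share no exon with another annotated gene. *Ilp2* has the strand of *CG32052*, and *ImpL2* that of *CG46460*, which is not in the count table, so strand could not separate these reads. *Ilp3*, *Ilp5*, *Ilp6* and *chico* lie opposite the genes they overlap. Whether strand was used in counting is not given in the sources used here. Reads of the host introns and of the antisense RNA therefore cannot be told apart from those of these 4 genes either. The host genes stood at 5.63 to 40.8 CPM (*CG32052*), 738 to 3084 CPM (*CG43897*) and 26.4 to 55.4 CPM (*Raf*).

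Per length, in RPKM on the TMM scale, *Thor* was by far the most abundant of the 9 transcripts, with a mean of 424 RPKM over the 16 libraries, followed by *ImpL2* at 58.2 RPKM and *foxo* at 39.9 RPKM. *InR*, *Ilp6* and *chico* formed a middle group at 18.7, 16.7 and 16.5 RPKM, and the brain peptides were lowest, *Ilp2* at 6.43 RPKM, *Ilp3* at 3.79 RPKM and *Ilp5* at 3.69 RPKM. *Thor* exceeded *ImpL2*, *foxo* exceeded *InR*, and *Ilp2* exceeded *Ilp3* in 16 of 16 libraries. Neighbours in the middle and at the bottom were not separated, since *InR* exceeded *Ilp6* in 9 of 16 libraries, *Ilp6* exceeded *chico* in 11 and *Ilp3* exceeded *Ilp5* in 7. Set against the chemoreceptor level of the same library, *Ilp2* stood 1.66 to 13.2 times above it and *Ilp3* 1.17 to 7.18 times. *Ilp5* ranged from 0.389 to 12.2 times that level, so in some libraries it was no more abundant per length than genes that few cells express.

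**Figure D1:**
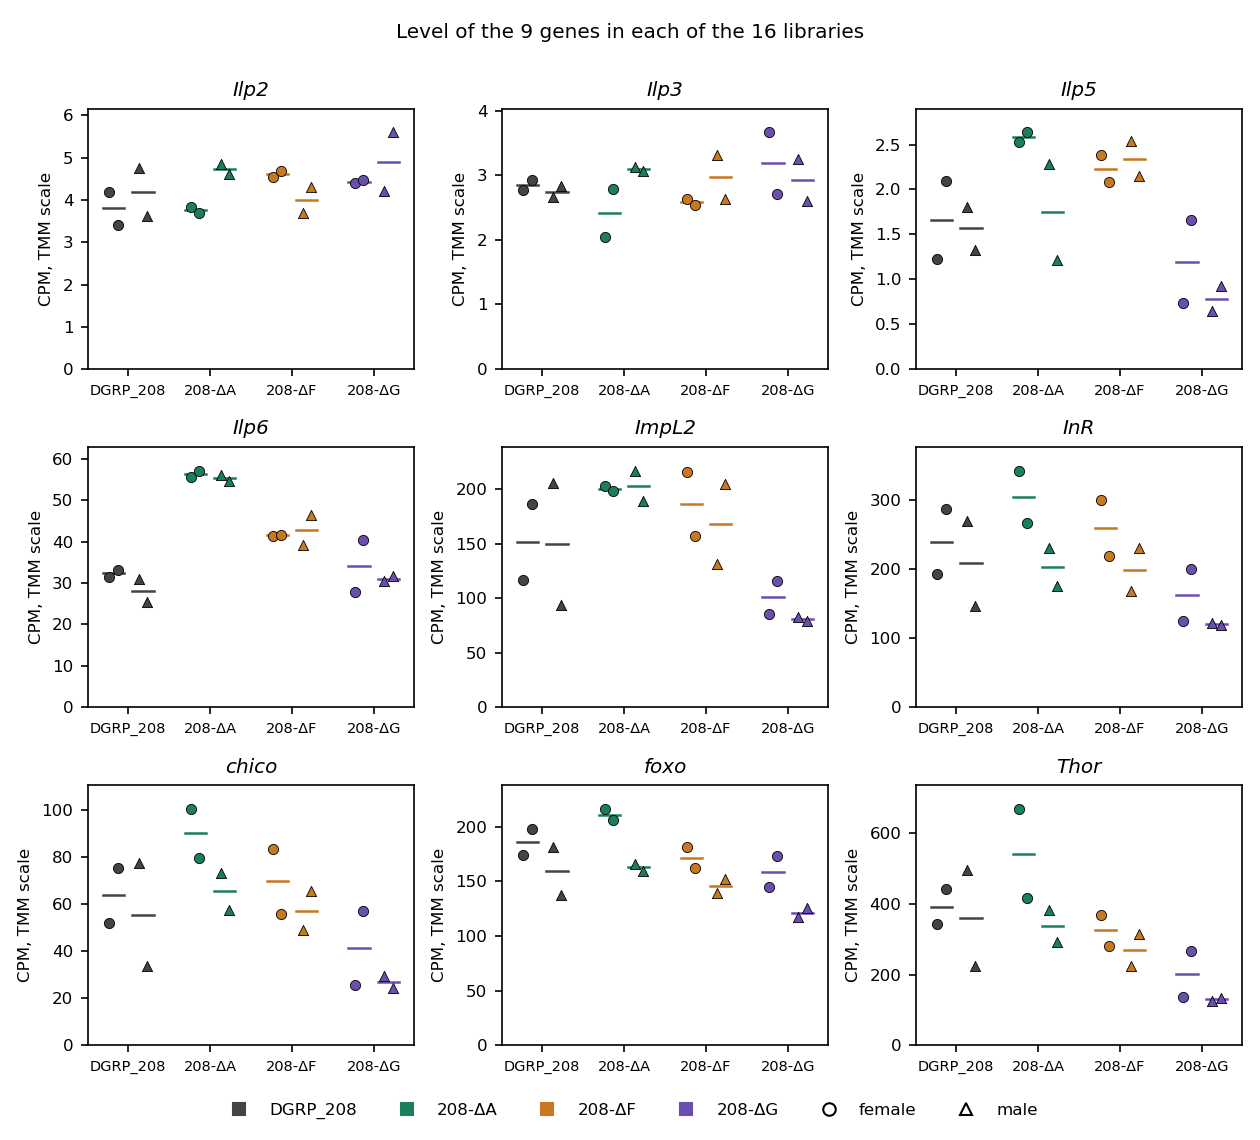
Level of each of the 9 genes in the 16 libraries, in CPM on the TMM scale (vertical axis, from 0), by line (horizontal axis, colour) and sex (circles for females, triangles for males). Each point is 1 library and each short line is the mean of the 2 libraries of a group. *Ilp6* in *208-ΔA* sits between 54.6 and 57.1 CPM, above each DGRP_208 library, while *Thor*, *chico*, *ImpL2* and *InR* spread widely within DGRP_208.

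Among the peptides of the brain neurosecretory cells, *Ilp2* and *Ilp3* varied least of the 9 genes. *Ilp2* ranged from 3.42 to 4.75 CPM in DGRP_208, 3.68 to 4.86 CPM in *208-ΔA*, 3.70 to 4.69 CPM in *208-ΔF* and 4.22 to 5.60 CPM in *208-ΔG*. *Ilp3* ranged from 2.66 to 2.92 CPM in DGRP_208, 2.04 to 3.12 CPM in *208-ΔA*, 2.54 to 3.31 CPM in *208-ΔF* and 2.60 to 3.66 CPM in *208-ΔG*. The lines overlapped for both genes, and the highest library exceeded the lowest 1.64-fold for *Ilp2* and 1.79-fold for *Ilp3*. These levels rest on few reads, 47 to 237 per library for *Ilp2* and 25 to 142 for *Ilp3*.

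*Ilp5*, the third peptide of these cells, ranged more widely, 4.10-fold over the libraries, on 15 to 99 reads. It stood at 1.23 and 2.10 CPM in DGRP_208 females and at 1.80 and 1.33 CPM in DGRP_208 males. In *208-ΔA* the females held 2.53 and 2.64 CPM and the males 2.28 and 1.22 CPM. The *208-ΔA* libraries therefore spanned the DGRP_208 range and passed it. In *208-ΔF* the females held 2.38 and 2.08 CPM and the males 2.54 and 2.15 CPM. In *208-ΔG* the females held 0.732 and 1.66 CPM and the males 0.642 and 0.921 CPM. The *208-ΔG* libraries were lowest, but the female library at 1.66 CPM lay within the DGRP_208 range. The host gene *CG43897*, whose intron reads cannot be told apart from those of *Ilp5*, also had its lowest group means in *208-ΔG*. These were 1005 CPM in females and 1084 CPM in males. They were 2268 and 2646 CPM in *208-ΔA*, 1898 and 2172 CPM in *208-ΔF*, and 2000 and 2200 CPM in DGRP_208. The 2 DGRP_208 males spread widely (standard deviation 1251 CPM), and the part of *CG43897* in the level of *Ilp5* was not tested. Within a library, where scaling cancels, *Ilp5* had 0.152 to 0.370 reads per *Ilp2* read in *208-ΔG*, 0.293 to 0.613 in DGRP_208, 0.444 to 0.686 in *208-ΔF* and 0.264 to 0.716 in *208-ΔA*, while *Ilp3* had 0.464 to 0.895 over all libraries. The summed level of 5 neuroendocrine markers, whose lowest gene was *Dsk* at 1.12 to 4.09 CPM, was 150 to 170 CPM in *208-ΔG*, 157 to 246 CPM in DGRP_208, 155 to 208 CPM in *208-ΔF* and 144 to 229 CPM in *208-ΔA*, and its part in the level of *Ilp5* was not tested. The sum joins genes that moved apart: *Phm*, which encodes an enzyme of neuropeptide processing, had 35.0 to 50.6 CPM in *208-ΔG* against 65.7 to 137 CPM in DGRP_208, while *dimm*, a transcription factor gene of neuroendocrine cells, had 16.3 to 31.2 CPM against 4.07 to 20.3 CPM. *Phm* was thus apart from the control, while *dimm* overlapped it. Over the 16 libraries *dimm* stood at only 0.962 to 2.40 times the chemoreceptor level of the same library. *Akh* (16.9 to 25.1 CPM against 8.49 to 19.1 CPM), *amon* (66.7 to 77.7 CPM against 55.4 to 86.8 CPM) and *Dsk* (1.12 to 2.11 CPM against 1.62 to 3.64 CPM) overlapped the control as well.

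*Ilp6*, the fat body peptide, was higher in *208-ΔA* than in DGRP_208. It stood at 31.5 and 33.2 CPM in DGRP_208 females and at 30.9 and 25.4 CPM in DGRP_208 males. In *208-ΔA* the females held 55.7 and 57.1 CPM and the males 56.1 and 54.6 CPM. All 4 *208-ΔA* libraries were thus close to each other and above the 4 control libraries. In *208-ΔF* the females held 41.5 and 41.6 CPM and the males 39.2 and 46.5 CPM. In *208-ΔG* the females held 27.8 and 40.5 CPM and the males 30.5 and 31.7 CPM. The *208-ΔF* libraries were also all above the control and below *208-ΔA*, whereas those of *208-ΔG* overlapped the control. Groups of 4 libraries that did not overlap DGRP_208 were found for 3.49% of all genes in *208-ΔA*, 1.31% in *208-ΔF* and 9.3% in *208-ΔG*, and of the 9 genes only *Ilp6* was among them, in *208-ΔA* and *208-ΔF*.

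The comparison of *208-ΔA* with DGRP_208 called 1 of the 9 genes, *Ilp6*, at an edgeR adjusted p under 0.05. The same comparison called 0.167% of all genes, and 0.117% as higher in *208-ΔA*. *Ilp6* was 1.85-fold higher, a log2 difference of 0.89 ± 0.142 (standard error here and below, adjusted p = 0.0448). The call lies at the threshold: leaving out 1 library at a time gave log2 fold changes of 0.84 to 0.94 with adjusted p from 0.0283 to 0.288, and *Ilp6* was called in 2 of the 16 refits, those without 1 of the *208-ΔG* females, in each of which 0.166% of all genes were called. DESeq2 (adjusted p = 8.12e-06) and limma-voom (0.0364) called it as well. It was not called by the linear model on GeTMM values (0.0505), with DESeq2 size factors (0.0585), without a filter (0.0573), with filterByExpr (0.0553) or with the replicate number as a block (0.89, adjusted p = 0.0879). Nor was it called with library size only (0.63, adjusted p = 0.165), without the 2 libraries that hold transcripts of the other sex (0.403) or without *208-ΔG* (0.0577), the last 2 of these chosen after seeing the data. In these bulk samples more fat body cells and more RNA per cell cannot be told apart. The summed level of 6 fat body markers, all of them with reads in every library, was 6021 to 8235 CPM in *208-ΔA*, 3499 to 4703 CPM in *208-ΔF*, 1583 to 3248 CPM in *208-ΔG* and 2324 to 4005 CPM in DGRP_208, and its part in the level of *Ilp6* was not tested. Most of this sum is *apolpp* and *FASN1*, a fatty acid synthase gene. Of the 6 markers only *apolpp* was apart from the control in *208-ΔA*, at 3640 to 5033 CPM against 905 to 1821 CPM. *FASN1* (1823 to 2753 CPM against 1122 to 2082 CPM), *Apoltp* (372 to 610 CPM against 255 to 512 CPM), *Mtp* (40.8 to 55.9 CPM against 33.3 to 58.2 CPM), *Lsp2* and *Fbp2* overlapped it. *Ilp6* was also among the genes that the study singled out in these samples, so its call is not independent evidence.

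The other 8 genes were not called in *208-ΔA*. *ImpL2* had a log2 fold change over DGRP_208 of 0.42 ± 0.261, *Ilp5* one of 0.40, *chico* one of 0.37, *Thor* one of 0.19 and *InR* one of 0.16. For *foxo*, *Ilp2* and *Ilp3* the values were 0.10, 0.08 and -0.03. *Ilp6* had the largest log2 fold change of the 9 genes and, after *foxo*, the smallest standard error.

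In *208-ΔF* against DGRP_208, 0 of the 9 genes were called by edgeR, against 0.074% of all genes, and DESeq2, limma-voom and a linear model on GeTMM values called 0 as well. At an unadjusted p under 0.05 there was 1 of the 9, *Ilp6*, against 5.06% of all genes. Its log2 fold change was 0.48 ± 0.141 (adjusted p = 0.627), and that of *Ilp5* was 0.51 ± 0.346. *Thor* had a value of -0.34, and the other 6 genes lay between -0.13 and 0.23.

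Averaged over the 3 deletion lines, 0 of the 9 genes differed from DGRP_208 by edgeR, against 0.117% of all genes. *Ilp6* was the 1 gene at an unadjusted p under 0.05, which 4.39% of all genes reached, with a log2 fold change of 0.49 ± 0.119 (adjusted p = 0.317). DESeq2 called *Ilp6* (0.50, adjusted p = 0.0321) and 0.611% of all genes, and limma-voom and the linear model called 0. In females alone 0 of the 9 were called (0.13% of all genes), and *Ilp6* alone had an unadjusted p under 0.05 (3.78% of all genes), with a log2 fold change of 0.41. In males alone 0 were called as well (0.0617% of all genes), and *Ilp6* alone had an unadjusted p under 0.05 (2.94% of all genes), with a log2 fold change of 0.57. None of the other 3 tools called any of the 9 genes in either sex alone. These comparisons share their DGRP_208 libraries with each other and with those of the single lines.

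*Ilp6* was also set against other genes of the same library, which needs no scaling between libraries. This ratio was chosen after the values were seen. Per read of *foxo*, *Ilp6* had 0.168 to 0.184 reads in DGRP_208, 0.257 to 0.342 in *208-ΔA*, 0.229 to 0.306 in *208-ΔF* and 0.192 to 0.259 in *208-ΔG*. On this measure each deletion library, *208-ΔG* included, was above each DGRP_208 library. The share of all genes that were apart in this way per read of *foxo* is not given here. In *208-ΔG* the log2 fold change over DGRP_208 was 0.11 for *Ilp6* and -0.31 for *foxo*, so there the ratio moved more through the lower *foxo* than through *Ilp6*. Per read of *Ilp2* it had 6.51 to 9.73 reads in DGRP_208, 11.6 to 15.5 in *208-ΔA*, 8.88 to 10.8 in *208-ΔF* and 5.66 to 9.03 in *208-ΔG*, and only *208-ΔA* was apart from the control.

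*ImpL2*, which encodes the secreted protein that binds the peptides, was the second most abundant transcript per length. It stood at 116 and 187 CPM in DGRP_208 females and at 206 and 93.4 CPM in DGRP_208 males. In *208-ΔA* the females held 203 and 198 CPM and the males 217 and 189 CPM. The control libraries thus reached from the level of *208-ΔA* far below it. In *208-ΔF* the females held 216 and 157 CPM and the males 132 and 205 CPM. In *208-ΔG* the females held 85.7 and 116 CPM and the males 82.6 and 79.2 CPM. The 4 libraries of *208-ΔG* were below those of *208-ΔA* and *208-ΔF* and overlapped those of DGRP_208.

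*InR*, the receptor, showed the same overlap. It stood at 192 and 286 CPM in DGRP_208 females and at 269 and 147 CPM in DGRP_208 males. Females of *208-ΔA* held 342 and 267 CPM and the males 231 and 176 CPM. The *208-ΔA* females included the highest library of the 16. Females of *208-ΔF* held 299 and 218 CPM and the males 168 and 230 CPM, and in *208-ΔG* the females held 125 and 200 CPM and the males 122 and 119 CPM. The female *208-ΔG* library at 200 CPM lay within the range of each of the other lines.

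*chico*, the receptor substrate, ranged 4.12-fold over the libraries. It stood at 52.3 and 75.7 CPM in DGRP_208 females and at 77.5 and 33.9 CPM in DGRP_208 males. Females of *208-ΔA* held 101 and 79.7 CPM and the males 73.5 and 57.7 CPM. The lowest of these 4 libraries was still above the lowest DGRP_208 libraries of either sex. Females of *208-ΔF* held 83.5 and 56.1 CPM and the males 48.9 and 65.5 CPM, and in *208-ΔG* the females held 25.8 and 57.3 CPM and the males 29.7 and 24.4 CPM. Of the *208-ΔG* libraries 3 were below each of the other 12, and the female one at 57.3 CPM was not. The ratio of *InR* to *chico* reads stayed within 3.04 to 4.88 in every library, a narrower range than that of either gene alone. Both genes fell with the chemoreceptor level, as given below, and how many other pairs of genes kept so narrow a ratio was not tested.

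*foxo*, the transcription factor, had the narrowest spread of the 5 genes that do not encode peptides, 1.84-fold. It stood at 174 and 198 CPM in DGRP_208 females and at 182 and 138 CPM in DGRP_208 males. Females of *208-ΔA* held 216 and 206 CPM and the males 166 and 160 CPM. Both *208-ΔA* females were above all the other 14 libraries. Females of *208-ΔF* held 181 and 162 CPM and the males 139 and 152 CPM, and in *208-ΔG* the females held 145 and 173 CPM and the males 117 and 126 CPM. The *208-ΔG* males were the lowest libraries of the 16.

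*Thor*, the Foxo target that encodes 4E-BP, ranged most, 5.27-fold. It stood at 344 and 442 CPM in DGRP_208 females and at 497 and 226 CPM in DGRP_208 males. Females of *208-ΔA* held 670 and 416 CPM and the males 383 and 293 CPM. The 2 control males thus differed by more than the means of *208-ΔA* and DGRP_208 did. Females of *208-ΔF* held 370 and 282 CPM and the males 225 and 316 CPM, and in *208-ΔG* the females held 138 and 267 CPM and the males 127 and 133 CPM. Of the *208-ΔG* libraries 3 were below the other 12 and the female one at 267 CPM was within them. Per read of *foxo*, *Thor* had 0.952 to 1.54 reads in *208-ΔG*, 1.64 to 2.73 in DGRP_208, 1.83 to 3.09 in *208-ΔA* and 1.62 to 2.08 in *208-ΔF*. On this ratio, chosen after the values were seen, *208-ΔG* was below each library of the other lines. The share of all genes that were apart in this way is not given here.

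In *208-ΔG* against DGRP_208, 0 of the 9 genes were called by edgeR, against 0.271% of all genes. At an unadjusted p under 0.05 there were 5, *Thor*, *ImpL2*, *InR*, *chico* and *foxo*, against 28.2% of all genes. *Thor* had a log2 fold change of -1.21 ± 0.299 (adjusted p = 0.0773) and was the 1 gene with an adjusted p under 0.1, which 10.7% of all genes reached. DESeq2 called *Thor* (-1.23, adjusted p = 0.0120) and 10.4% of all genes, and limma-voom and the linear model on GeTMM values called 0. The value of *Thor* was -0.72 (adjusted p = 0.126) with library size only and -0.48 (adjusted p = 0.639) with the chemoreceptor level of each library in the fit. The values of *chico*, *ImpL2*, *Ilp5*, *InR* and *foxo* were -0.83, -0.74, -0.72, -0.67 and -0.31, and those of *Ilp2*, *Ilp3* and *Ilp6* were 0.22, 0.12 and 0.11. Without the second DGRP_208 male library, whose chemoreceptor level was the highest of the 4 controls, edgeR called 5 of the 9 genes and 35.4% of all genes, and without the second *208-ΔG* female it called 2 of the 9 and 10.4% of all genes.

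**Figure D2:**
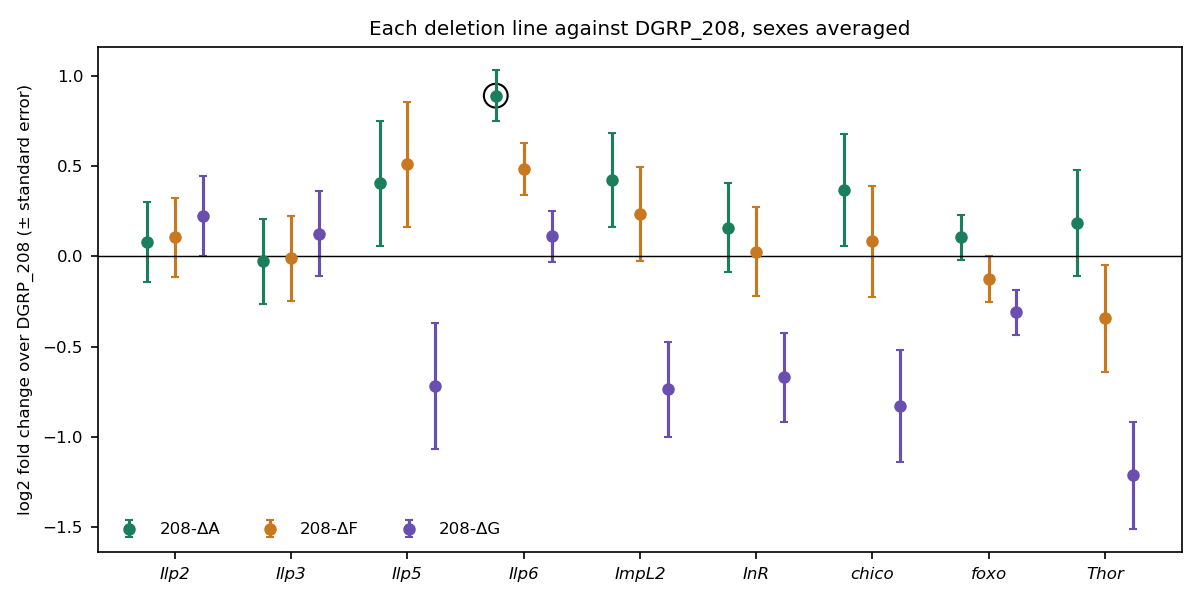
Log2 fold change of each gene in *208-ΔA*, *208-ΔF* and *208-ΔG* over DGRP_208 with the sexes averaged (vertical axis), with bars of 1 standard error from edgeR, for the 9 genes (horizontal axis). The circled point, *Ilp6* in *208-ΔA* at 0.89, is the only one with an adjusted p under 0.05, and the *208-ΔG* points of *Thor*, *chico*, *ImpL2*, *Ilp5* and *InR* lie between -1.21 and -0.67.

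For the Line term, which asks whether the 4 lines differ at all, 0 of the 9 genes had an adjusted p under 0.05, against 0.191% of all genes. At an adjusted p under 0.1 there were 7, against 50.7% of all genes, and the same 7 had an unadjusted p under 0.05, against 50.4%. *Ilp6* had the smallest p (2.21e-04, adjusted p = 0.0568), followed by *Thor* (adjusted p = 0.0568), *ImpL2* (0.0569), *chico* (0.0642), *Ilp5* (0.0675), *InR* (0.0793) and *foxo* (0.0846). *Ilp2* and *Ilp3* had adjusted p of 0.813 and 0.921. DESeq2 called 6 of the 9 and 53.4% of all genes, limma-voom 3 and 30.2%, and the linear model on GeTMM values 0 and 0.111%. With the chemoreceptor level in the fit edgeR called 0 of the 9 and 0.259% of all genes.

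The pair of lines farthest apart was *208-ΔG* and *208-ΔA*, and there 7 of the 9 genes were lower in *208-ΔG*. This comparison called 57.9% of all genes, and 30.1% as lower in *208-ΔG*, so with TMM factors most of the genes tested were called. *Thor* had a log2 fold change of -1.40 ± 0.3001 (adjusted p = 0.0101), *chico* one of -1.20 (0.0118), *ImpL2* one of -1.16 (0.0103) and *Ilp5* one of -1.12 (0.0198). *InR* fell by 0.83 (adjusted p = 0.0172), *Ilp6* by 0.78 (0.0100) and *foxo* by 0.42 (0.0178) on the log2 scale. *Ilp2* and *Ilp3* were not called, at 0.15 each. DESeq2, limma-voom and the linear model on GeTMM values called the same 7 genes and 57.5% to 63.5% of all genes. Without *208-ΔA* female replicate 1, *208-ΔA* male replicate 1 or *208-ΔG* female replicate 1, edgeR called 4 of them and 35%, 38.8% or 35.7% of all genes, and *Thor*, *chico*, *ImpL2* and *Ilp6* were called without any single library.

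The zero point of these differences depends on the scaling. Scaled to library size alone, the median of all genes moved to 0.73 between *208-ΔG* and *208-ΔA*, against 0.01 with TMM factors, and 5 of the 9 genes and 59.2% of all genes were called. Nearly all genes moved by the same amount, 0.68 to 0.75 for the middle 90% of them and 0.70 to 0.74 for the 9, so the changes of direction follow from this common shift. *ImpL2* and *Thor* were then lower in *208-ΔG* at -0.44 and -0.69, *Ilp2* and *Ilp3* were higher at 0.87 and 0.89, and *foxo* changed direction to 0.31 (adjusted p = 0.0132). With the chemoreceptor level of each library in the fit, 0 of the 9 genes and 0% of all genes were called. *Ilp6* and *Ilp5* stood at -0.50 and -0.47, *Thor*, *ImpL2*, *foxo* and *chico* at -0.24, -0.14, -0.06 and -0.02, and *InR* changed sign to 0.16. As the chemoreceptor levels of *208-ΔG* and *208-ΔA* do not overlap, line and chemoreceptor level cannot be told apart in this pair.

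**Figure D3:**
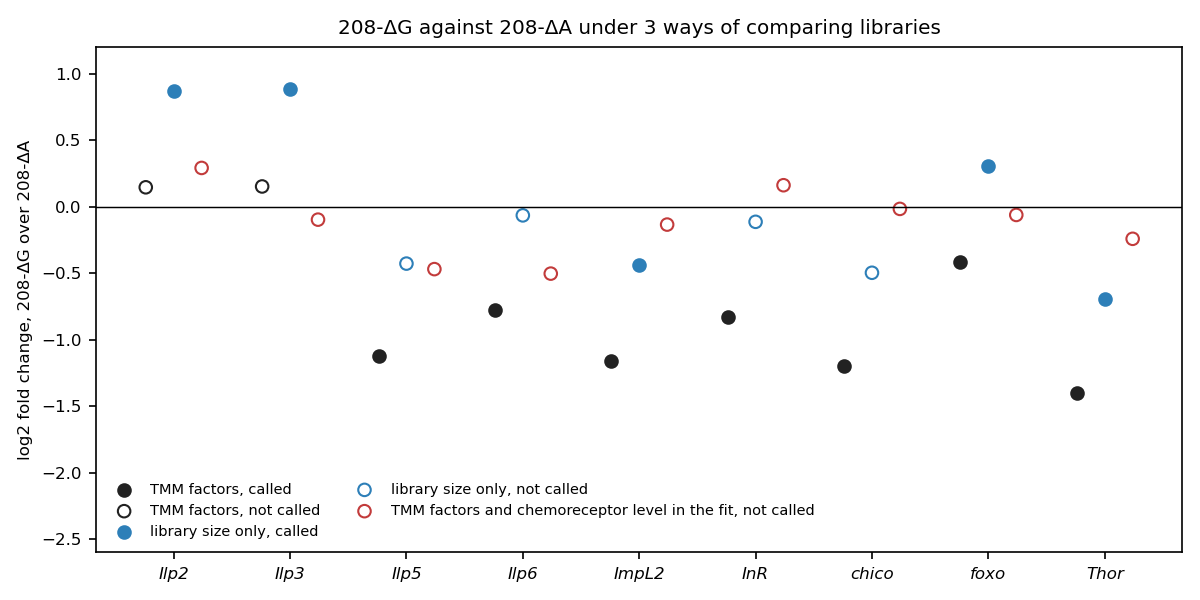
Log2 fold change of *208-ΔG* over *208-ΔA* (vertical axis) for the 9 genes (horizontal axis), from fits with TMM factors, with library size only, and with TMM factors and the chemoreceptor level of each library. Filled points have an adjusted p under 0.05 and open points do not. With TMM factors 7 genes are called and all 7 are below 0, and with the chemoreceptor level in the fit none is called.

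Between *208-ΔF* and *208-ΔA*, 0 of the 9 genes were called by edgeR or the other 3 tools, against 0.00617% of all genes by edgeR. *Ilp6* (-0.41 ± 0.141) was the 1 gene at an unadjusted p under 0.05, which 8.38% of all genes reached. Between *208-ΔG* and *208-ΔF*, edgeR called 0 of the 9 genes and 0% of all genes, and 6 genes (*Ilp5*, *ImpL2*, *chico*, *Thor*, *InR*, *Ilp6*) had an unadjusted p under 0.05, against 38.8% of all genes. The same 6 had an adjusted p under 0.1, against 28.1% of all genes, with log2 fold changes from -1.23 for *Ilp5* to -0.37 for *Ilp6*. DESeq2 called *chico*, *Thor*, *ImpL2* and *Ilp5* and 27.3% of all genes, and limma-voom and the linear model called 0. Without *208-ΔG* female replicate 2 edgeR called 6 of the 9 and 19.1% of all genes, without the first DGRP_208 male 2 and 20.5%, and without the second 5 and 25.8%.

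Across all 16 libraries, the receptor, its substrate, the binding protein, *foxo* and *Thor* fell as the chemoreceptor level rose. Within the 8 groups, edgeR gave a slope for each doubling of the chemoreceptor level, and 5 of the 9 genes were called, all falling. The slope was called for 52.1% of all genes and fell for 24.2%. It was -0.43 for *chico* (standard error 0.0741, adjusted p = 0.00108), -0.41 for *Thor* (6.16e-04), -0.37 for *ImpL2* (4.58e-04), -0.35 for *InR* (1.59e-04) and -0.13 for *foxo* (0.0151), in log2 units. The 4 peptides were not called, with slopes of -0.23 for *Ilp5*, -0.10 for *Ilp6*, -0.05 for *Ilp2* and 0.09 for *Ilp3*. In 7 of the 8 groups the 2 libraries differed over 1.5-fold in chemoreceptor level, and in 7 of these 7 the library with the higher level held less *chico*, *foxo*, *ImpL2*, *InR* and *Thor*. *Ilp2*, *Ilp5* and *Ilp6* were lower there in 5 of the 7 pairs and *Ilp3* in 3. These pairs hold the same differences within groups that the slopes rest on, so they add no separate evidence. The share of all genes lower in 7 of the 7 pairs is not given here.

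**Figure D4:**
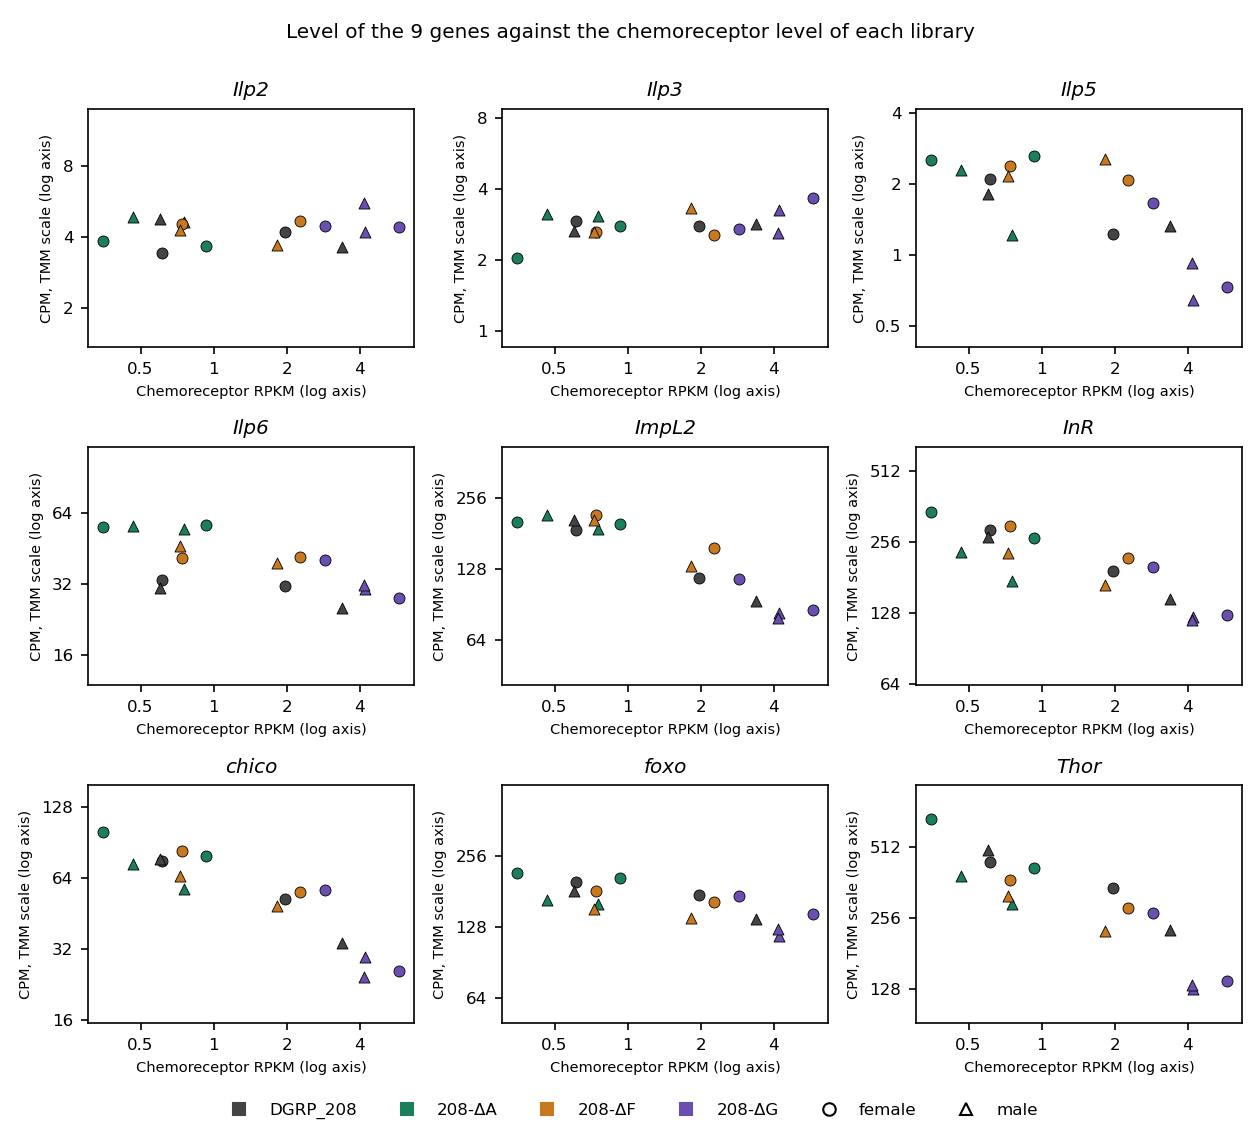
Level of each of the 9 genes in CPM on the TMM scale (vertical log axis, the same span in each panel) against the median chemoreceptor RPKM of the library (horizontal log axis), with 1 point per library, coloured by line and shaped by sex. *ImpL2*, *InR*, *chico* and *Thor* fall from the left, where *208-ΔA* lies, to the right, where *208-ΔG* lies, with the DGRP_208 libraries among both, while *Ilp2* and *Ilp3* stay level.

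As a description over the 16 libraries, which share their chemoreceptor level with their line, Pearson's r of log2 CPM with the log2 chemoreceptor level was -0.94 for *ImpL2*, -0.91 for *chico*, -0.89 for *Thor* and -0.87 for *InR*. For *Ilp5*, *foxo* and *Ilp6* it was -0.74, -0.73 and -0.68, and for *Ilp3* and *Ilp2* 0.44 and 0.16. With the chemoreceptor level in the fit, *Ilp6* was called for the average of the deletion lines over DGRP_208 (0.52 ± 0.0926, adjusted p = 0.0471) and for *208-ΔA* over DGRP_208 (0.78, adjusted p = 0.0391), comparisons that then called 0.518% and 0.265% of all genes. Leaving out 1 library at a time from the latter fit gave 0.71 to 0.82 with adjusted p from 0.0109 to 0.439, and *Ilp6* was called in 3 of the 16 refits. The direction of *Ilp6* in *208-ΔA* thus held without any single library, and its adjusted p did not.

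Between the sexes, averaged over the lines, 1 of the 9 genes was called, *foxo*, which was lower in males. This comparison called 39.8% of all genes, and 19% as lower in males. *foxo* had 145 to 216 CPM in the 8 female libraries (median 178) and 117 to 182 CPM in the 8 male libraries (median 145), which overlapped, whereas 18.2% of all genes had no overlap of the sexes. The log2 fold change of *foxo* in males over females was -0.31 ± 0.0888 (adjusted p = 0.0166), and each of the other 3 tools called it too. It was called in 10 of 16 refits without 1 library, with values from -0.35 to -0.23 and adjusted p from 0.0127 to 0.0973. *InR* (-0.40 ± 0.174, adjusted p = 0.0974), *Thor* (-0.43, adjusted p = 0.136) and *chico* (-0.39, adjusted p = 0.195) had larger values but were not called. With the chemoreceptor level in the fit, 55.1% of all genes were called, 28.7% as lower in males, and 4 of the 9 were among the latter, *foxo* (-0.30), *InR* (-0.38, adjusted p = 6.06e-04), *chico* (-0.37, 0.0137) and *Thor* (-0.41, 0.00354). Ovary markers summed to 275 to 1727 CPM in females and 9.35 to 278 CPM in males, and their part in these differences was not tested.

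The 4 peptides and *ImpL2* were not called between the sexes. *Ilp5* had a log2 fold change in males over females of -0.30, *ImpL2* one of -0.12, *Ilp6* one of -0.08, and *Ilp2* and *Ilp3* each one of 0.10. For the Line by Sex term, which asks whether the lines differ in another way in males than in females, edgeR called 0 of the 9 genes and 0% of all genes, 0 of the 9 had an unadjusted p under 0.05, against 4.54% of all genes, and the other 3 tools called 0.

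Among 28 other genes of the pathway, 27 were tested, and *Pepck1* had no read in any library. Of the 27, 0 were called by edgeR for Line, Line by Sex, the average of the deletion lines, or any single line against DGRP_208. At an unadjusted p under 0.05 there were 20 for Line, 0 for Line by Sex, 1 for the average, 3 for *208-ΔA*, 0 for *208-ΔF* and 11 for *208-ΔG*, against 50.4%, 4.54%, 4.39%, 15.3%, 5.06% and 28.2% of all genes. For Line the smallest p belonged to *tobi*, an alpha-glucosidase gene, *Rheb*, the GTPase that activates TOR kinase, and *Pdk1*, a kinase that activates Akt, each with an adjusted p of 0.0568. Between *208-ΔG* and *208-ΔA* 20 of the 27 were called, against 57.9% of all genes. Lower in *208-ΔG* were 13, against 30.1% of all genes, among them the intracellular kinases and their partners *Akt* (-1.10), *Pdk1* (-0.97), *S6k* (-1.01), *Pi3K92E* (-0.96), *Pi3K21B* (-0.73) and *Rheb* (-1.15). The TOR inhibitors *scyl* (-1.22) and *chrb* (-1.12), the lipase gene *bmm* (-1.17), the translation factor *eIF4E1* (-1.39), *REPTOR* (-0.78) and *tobi* (-1.36) were lower as well.

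Higher in *208-ΔG* were 7, against 27.8% of all genes, and 4 of them were further peptides of the family. *Ilp4* had 6.30 to 13.5 CPM in *208-ΔG* and 0.570 to 2.48 CPM in *208-ΔA* (log2 fold change 2.90, adjusted p = 0.0142). *Ilp7*, *Ilp1* and *Ilp8* had log2 fold changes of 2.74, 1.54 and 1.53. *Lgr3*, the receptor of Ilp8, had one of 2.53, *Sdr*, a secreted decoy of InR, one of 1.02, and *Akh*, the adipokinetic hormone, one of 0.87. *Ilp1*, *Ilp4*, *Ilp7*, *Ilp8*, *Sdr* and *Lgr3* also rose with the chemoreceptor level, by 0.68, 1.19, 0.98, 0.44, 0.40 and 1.12 in log2 units per doubling, and 13 of the 27 fell with it, while over all genes 27.9% rose and 24.2% fell. Within the family, *Ilp4* and *Ilp7* thus rose with that level while the slopes of *Ilp2* and *Ilp3* were not called. Per length, *Ilp1* stood at 1.02 to 2.24, *Ilp4* at 1.15 to 4.38 and *Ilp7* at 0.943 to 4.70 times that level over the 16 libraries. *Lgr3* stood at 1.05 to 2.48 times and *Ilp8* at 3.48 to 36.4 times. The lowest library held 6 reads of *Ilp1*, 14 of *Ilp4*, 7 of *Ilp7* and 27 of *Lgr3*. *Ilp1* and *Ilp4* also lie within the span of *CG32052*, which was higher in *208-ΔG* too. Its group means in females and males were 34.0 and 29.6 CPM in *208-ΔG* and 9.07 and 12.3 CPM in *208-ΔA*. It rose by 0.54 in log2 units per doubling of the chemoreceptor level (edgeR adjusted p = 3.12e-04). Its part in the levels of *Ilp1* and *Ilp4* was not tested. Between the sexes 11 of the 27 were called, against 39.8% of all genes, and 10 of them were lower in males, against 19%, with the smallest p for the TOR complex genes *raptor* (-0.78, adjusted p = 1.01e-04) and *rictor* (-0.63, 1.64e-04) and for *Tsc1* (-0.61, 2.54e-04), an inhibitor of TOR. *tobi* was the 1 gene higher in males (0.60).

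The genes most like *Ilp6* over the 16 libraries, by Pearson's r of log2 CPM among 14467 genes with a mean of at least 1 CPM, were *apolpp* (0.978), *CG4250* (0.957), *Tep2* (0.948), *Arc1* (0.937) and *GstD2* (0.927). *apolpp* encodes the main lipoprotein of the fly's hemolymph and is one of the fat body markers above. It had 3640 to 5033 CPM in *208-ΔA*, 2073 to 2793 CPM in *208-ΔF*, 872 to 2144 CPM in *208-ΔG* and 905 to 1821 CPM in DGRP_208. Over the 16 libraries *apolpp* ranged 5.77-fold and *Ilp6* 2.25-fold, so *apolpp* varied more than *Ilp6* did. Per read of *Ilp6* it had 31.4 to 92.2 reads. In *208-ΔA* against DGRP_208 *Tep2*, a thioester protein gene, had a log2 fold change of 1.31 (adjusted p = 0.0103), *Arc1* one of 1.46 (0.0448) and *apolpp* one of 1.66 (0.0936). For *Ilp2* the likeness was weaker, with *CG43315* (0.719), *CG33920* (0.627), *lncRNA:CR45262* (0.611), *CheA46a* (0.595) and *Gycbeta100B* (0.591), and none of these genes exceeded an r of 0.72.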

How the data were processed

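The table deposited by the authors holds raw counts of reads per gene, whole numbers without normalization, with each library in its own column beside the gene lengths. By the study's methods, the authors filtered reads with AfterQC, aligned them with GSNAP and used featureCounts (Subread) to count those aligned to a single place, and the labels name dm6. GSNAP and Subread versions are not given in the sources used here. Libraries were assigned by the sample title in the column name. Symbols were found for 17288 of 17490 identifiers, and 1278 genes with a median count under 2, 663 of them without any count, were left out.

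Counts were fitted in edgeR 4.0.16 (R 4.3.3) with TMM factors and 1 mean for each of the 8 groups (8 residual degrees of freedom), tested with the quasi-likelihood F-test, and adjusted by Benjamini-Hochberg over 16212 genes. The threshold for a call was an adjusted p of 0.05. Depth limits the precision of *Ilp2*, *Ilp3* and *Ilp5*, with under 250 reads per library. The 9 genes, the pathway genes and the markers were chosen with earlier results of these data known. Named were all 9 genes, pathway genes called in a line comparison (except 1 that is not reported here), the 3 smallest p for Line and for Sex, and for *Ilp6* and *Ilp2* the 5 genes with the highest r. Alternatives were a threshold of 0.1, DESeq2 size factors, library size only, no filter, filterByExpr, DESeq2 1.42.0, limma-voom (limma 3.58.1), a linear model on GeTMM values (pseudocount 1), the log2 chemoreceptor level as a covariate, the replicate number as a block, and leaving out each library. Chosen after seeing the data were fits without 2 libraries that hold transcripts of the other sex, without *208-ΔG*, and with the covariate while leaving out each library. The tests were tried on simulated data.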

Additional observations from a re-analysis of the deposited data

How the results depend on the processing

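Of the 9 genes, edgeR called 0 for Line, 1 for Sex, 0 for the average of the deletion lines against DGRP_208, 1 for *208-ΔA* and 0 for *208-ΔG* against DGRP_208, 7 for *208-ΔG* against *208-ΔA* and 0 for *208-ΔG* against *208-ΔF*. At an adjusted p under 0.1 the counts were 7 for Line, 2 for Sex, 1 for *208-ΔG* against DGRP_208 and 6 for *208-ΔG* against *208-ΔF*. Of all genes, 50.7%, 45.2%, 10.7% and 28.1% passed that threshold in these comparisons. With library size only the counts were 4 for Line, 3 for Sex and 0 for *208-ΔA*, and *foxo* in *208-ΔG* against *208-ΔA* reversed to 0.31. The shares of all genes called for Line and Sex under that scaling are not given here. DESeq2 called 6 for Line, 1 for the average, 1 for *208-ΔG* against DGRP_208 and 4 for *208-ΔG* against *208-ΔF*, and limma-voom 3 for Line. With the chemoreceptor covariate the counts were 4 for Sex, 1 for the average and 0 for *208-ΔG* against *208-ΔA*, where *InR* reached 0.16.

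The call of *Ilp6* in *208-ΔA* against DGRP_208 was lost, leaving 0 of the 9 genes, with DESeq2 size factors (adjusted p = 0.0585), library size only (0.165), no filter (0.0573), filterByExpr (0.0553), the linear model on GeTMM values (0.0505), and, chosen after seeing the data, without the 2 libraries that hold transcripts of the other sex (0.403) and without *208-ΔG* (0.0577). It was kept by DESeq2 (8.12e-06), limma-voom (0.0364) and the covariate (0.0391), and its log2 fold change was above 0 in each of these fits. With the replicate number as a block its value was 0.89 (adjusted p = 0.0879), 0 of the 9 genes were called in that comparison, and no other call changed. Libraries of the same number share only that number: over 28 pairs of groups their deviations correlated at -0.77 to 0.60 (median -0.04), with 8 over 0.1.

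Leaving out 1 library at a time, the calls ranged from 0 to 6 for Line (6 and 4 without the second and the first DGRP_208 male, 3 without *208-ΔF* or *208-ΔG* female replicate 2, beside 47.7%, 42.1%, 27.1% and 16.1% of all genes), 0 to 4 for Sex (4 without DGRP_208 male replicate 1, beside 39.9% of all genes), 0 to 1 for *208-ΔA* and 0 to 5 for *208-ΔG* against DGRP_208, 4 to 7 for *208-ΔG* against *208-ΔA* (4 without *208-ΔA* female or male replicate 1 or *208-ΔG* female replicate 1) and 0 to 6 for *208-ΔG* against *208-ΔF* (6 without *208-ΔG* female replicate 2), and were 0 to 0 for Line by Sex, the average, either sex alone, *208-ΔF* against DGRP_208 and *208-ΔF* against *208-ΔA*. The library that remains in a group is taken to vary like those of other groups. *foxo* was called for Sex in 10 of the 16 refits, and not without *208-ΔA* female replicate 1, *208-ΔG* female replicate 2, either *208-ΔG* male, or the second DGRP_208 female or male. For *208-ΔG* against *208-ΔA*, *Thor*, *chico*, *ImpL2* and *Ilp6* were called in 16 of the 16, *InR* in 13, *Ilp5* in 12 and *foxo* in 9. Of the 90 values of these genes, 14 changed sign with library size only, 17 with the covariate, 1 to 11 with 1 library left out and 1 to 5 under each other alternative with all lines, as did 7 of 36 without *208-ΔG*, and apart from *foxo* and *InR* above none of these was a called value. The causes were not tested.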
